A study of Mus musculus with 4 samples.

Results

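The mitochondrial ribosomal proteins were followed across 4 expression arrays of mouse microglia, the resident macrophages of the brain. Members were the genes whose symbol on the array is Mrpl (large subunit) or Mrps (small subunit) followed by a number and at most 1 letter, which gave 74 of the 17768 genes kept, 46 named Mrpl and 28 named Mrps. The rule used symbols and no measured value, but the family was chosen with earlier results of these data known. The cells came from the whole brain of male mice of the strain C57BL/6J, and the arrays were OVA at postnatal day 70 (P70), PBS at P70, OVA at P30 and PBS at P30, where the submitters call OVA the allergy group and PBS the control group. Cells were taken 1 day after the intranasal challenge, and those of 4 samples were pooled before each group went onto 1 array. Every difference below is therefore a difference between 2 arrays, with no spread within a group to set it against, and no test was made.

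Mitochondria carry their own ribosome, which translates the few proteins encoded in mitochondrial DNA, all of them subunits of the respiratory chain and the ATP synthase. Its RNAs are made inside the organelle, whereas all its proteins are encoded in the nucleus, made in the cytosol and imported. Some of these proteins descend from those of bacterial ribosomes, and the others were gained by mitochondria.

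Values are log2 intensities, and a difference of 1 is a 2-fold difference. Of the 74 members, 67 had a mean level over the 4 arrays at or above 7.18, the median of all genes kept, and are called expressed. Of these, Mrpl44 was under that floor on both P30 arrays and on no P70 array, and 3 expressed members were under it on at least 1 array. The 7 members under the floor were Mrpl12, Mrpl35, Mrpl36, Mrpl41, Mrpl54, Mrpl57 and Mrps28. By role, 29 members (26 expressed) belong to the large subunit and have bacterial counterparts. Another 19 (16 expressed) were counted as proteins of the large subunit that only mitochondria have, Mrps30 and Mrps18a among them in spite of their symbols. The small subunit gave 15 members with bacterial counterparts (14 expressed) and 10 counted as found only in mitochondria (all expressed). Mrps18a and Mrps18b were placed in these mitochondrial groups although both are related to the bacterial protein S18. Mrps36, the remaining member, is now known as a component of the oxoglutarate dehydrogenase complex and was kept because its symbol fits. RefSeq lists 78 genes that fit the symbol rule: Mrpl30, Mrpl53 and Mrps6 stood only on probe sets shared with other symbols, and Mrpl58 is named Ict1 on the array.

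All 17 microglial marker genes found, of 18 listed, were expressed. The log2 of their summed intensity was 20.20 in OVA and 20.10 in PBS at P70, against 19.72 in OVA and 19.88 in PBS at P30. Cx3cr1, the brightest of them, differed between the ages by 0.19 in OVA and 0.05 in PBS, exactly as the arrays' upper limits did. Such a gene gives no measured difference, so the sum does not show whether the microglial signal differed. None of 8 neuron markers was expressed. Markers of neutrophils and monocytes differed strongly between the ages. The 15 neutrophil markers (12 expressed) summed to 19.54 in OVA and 19.77 in PBS at P70, against 14.90 in OVA and 16.26 in PBS at P30. The 10 monocyte markers found (8 expressed) summed to 14.62 in OVA and 14.45 in PBS at P70, against 11.34 in OVA and 11.26 in PBS at P30. As deposited, on the linear scale, the median intensity of a whole array was 105 in OVA and 111 in PBS at P70, against 132 in OVA and 131 in PBS at P30.

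**Figure D1:**
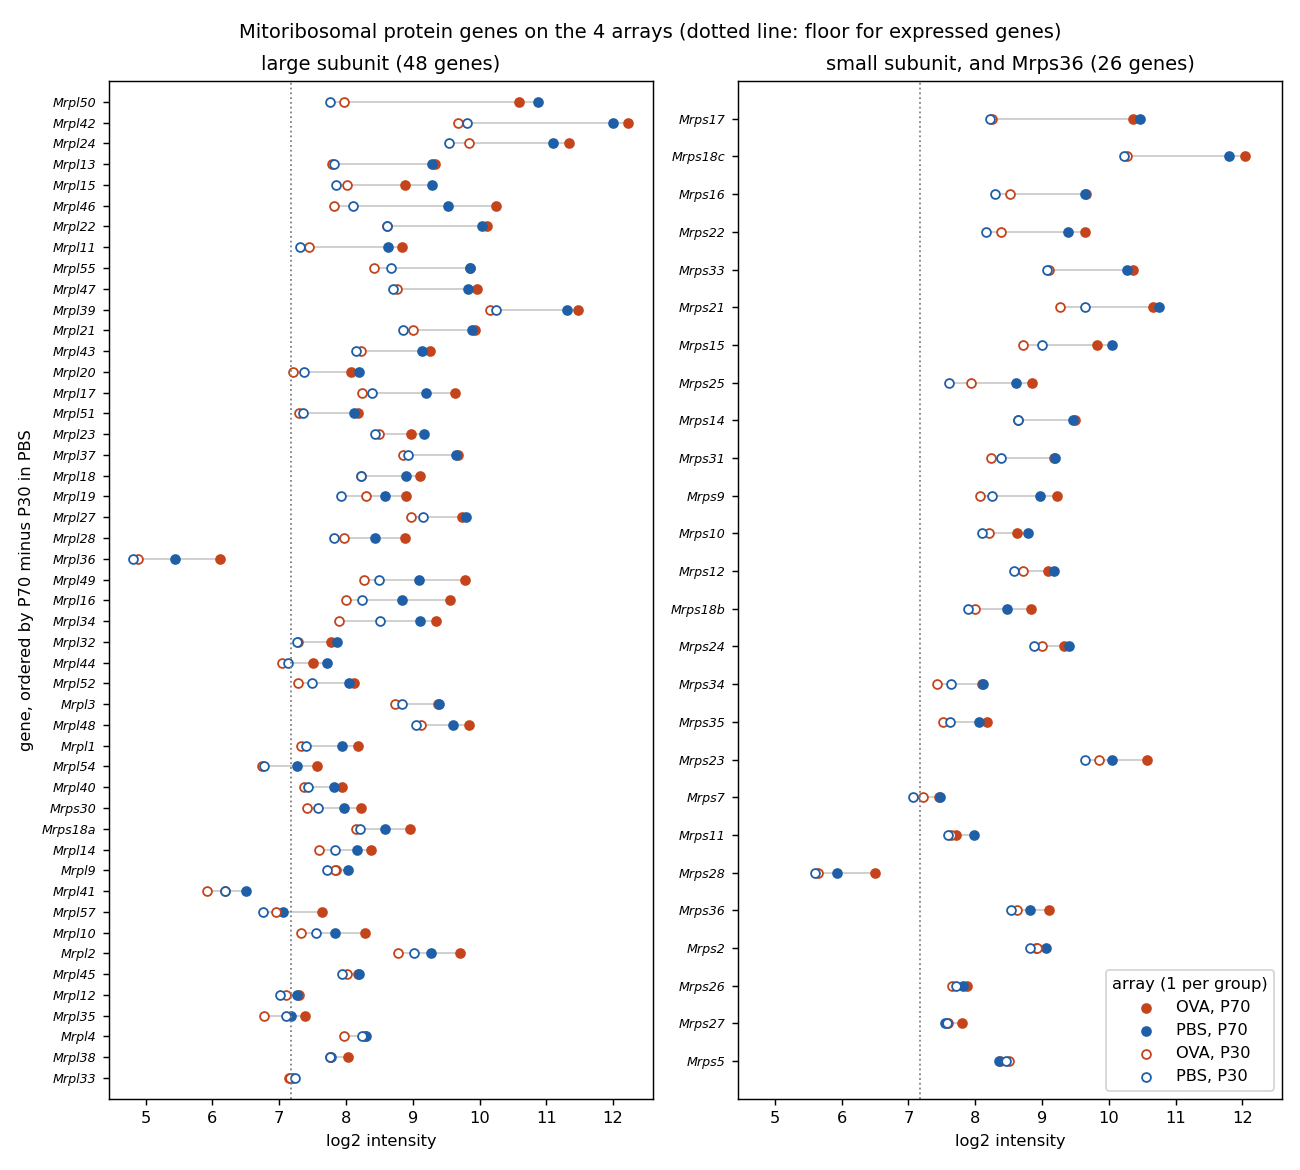
Log2 intensity (x axis) of each of the 74 members on the 4 arrays, 1 point per array, with genes of the large subunit on the left and those of the small subunit and Mrps36 on the right, ordered by their difference between P70 and P30 in PBS. The dotted line is the floor of 7.18. In 69 of the 74 genes both P70 points (filled) lie to the right of both P30 points (open). Among the 67 expressed members 63 had that order, as did 62.8% of all expressed genes.

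The members lay in the middle of the range of the arrays. Over the expressed members the median level was 9.10 in OVA and 9.07 in PBS at P70, against 8.21 in OVA and 8.22 in PBS at P30. Over all 8884 expressed genes it was 8.66 in OVA and 8.55 in PBS at P70, against 8.25 in OVA and 8.27 in PBS at P30. The brightest member stood at 12.23 in OVA at P70, far from that array's upper limit of 19.93, so no member was cut off by the range of the arrays. Levels of different probe sets depend on the probes and are not set against each other here.

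Comparing P70 with P30, in each treatment on its own, set microglia of the older mice against those of the younger. In PBS, 64 of the 67 expressed members were higher at P70, where 71.4% of all expressed genes were higher, and the median difference was 0.62, against 0.25 over all expressed genes. The count at least 1.5-fold higher was 39 (58.2%, where 28.7% of all expressed genes were), and the count at least 2-fold higher was 20 (background 13.3%). No member was at least 1.5-fold lower (background 3.17%). The 3 members below 0 were Mrps5 (-0.11), Mrpl33 (-0.04) and Mrps27 (-0.02).

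The OVA arrays gave a similar picture, from arrays that the PBS comparison does not use. Of the 67 expressed members, 64 were higher at P70 (background 76.1%), with a median difference of 0.86 against 0.38 over all expressed genes. At least 1.5-fold higher were 48 members (71.6%, background 38.3%), at least 2-fold higher 23 (background 19.5%), and none was at least 1.5-fold lower (background 4.59%). The 3 members below 0 were Mrps5 (-0.14), Mrps2 (-0.01) and Mrpl33 (-0.01). Both P70 values lay above both P30 values in 63 of the 67 expressed members, where 62.8% of all expressed genes had that order. All 7 members under the floor were higher at P70 in both treatments as well, so that 71 of all 74 members were higher in each. The share that was higher among all genes kept, or among those under the floor, is not given here. Over all 17768 genes kept the median age difference was -0.04 in OVA and -0.03 in PBS, against 0.85 and 0.60 over the 74 members. These medians are not of like levels: 8884 of the genes kept were expressed, against 67 of the 74 members, and brighter genes had larger age differences. Age, the array and any difference in handling between the ages cannot be told apart with 1 array per group.

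Mrpl50, a protein of the large subunit that only mitochondria have, had the largest age difference of the members. It stood at 10.60 in OVA and 10.87 in PBS at P70, against 7.97 in OVA and 7.77 in PBS at P30. This made it 6.18-fold higher at P70 in OVA and 8.59-fold higher in PBS, where it stood at percentile 99.8 of all expressed genes. Mrps17, whose bacterial counterpart binds the small ribosomal RNA early in assembly, came next in PBS. It stood at 10.37 in OVA and 10.47 in PBS at P70, against 8.25 in OVA and 8.22 in PBS at P30, a difference of 2.12 in OVA and 2.25 in PBS. The OVA and PBS values lay close together at each age and far apart between the ages.

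Mrpl42, also a large-subunit protein without a bacterial counterpart, was at 12.23 in OVA and 12.01 in PBS at P70, against 9.68 in OVA and 9.81 in PBS at P30. It was 5.85-fold higher at P70 in OVA and 4.59-fold higher in PBS. Mrps18c, one of 3 mammalian genes related to the single bacterial protein S18, was at 12.04 in OVA and 11.80 in PBS at P70, against 10.28 in OVA and 10.22 in PBS at P30. In both genes, as in 62.8% of all expressed genes, both P70 values lay above both P30 values. The 3 S18 relatives differed in size: the age difference of Mrps18c was 1.77 in OVA and 1.58 in PBS, that of Mrps18b was 0.84 in OVA and 0.58 in PBS, and that of Mrps18a, whose protein sits in the large subunit, was 0.80 in OVA and 0.38 in PBS.

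Mrpl46, a large-subunit protein with a fold of the Nudix hydrolase family, was the member with the largest gap between its age differences. It stood at 10.25 in OVA and 9.53 in PBS at P70, against 7.82 in OVA and 8.10 in PBS at P30, a difference of 2.43 in OVA and 1.43 in PBS. Its OVA value was the highest of the 4 at P70 and the lowest of the 4 at P30.

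The starts of the genes with the largest age differences are shown so that the regulatory sequence can be read beside the values. Each sequence runs 5′ to 3′ on the gene's own strand, from 250 bases before the annotated start to 50 bases from it, so that base 251 is the start; it was taken from RefSeq, build GRCm38.p6. Capitals mark exact matches to 1 of 4 short motifs, on either strand: CCGGAAG (a core bound by ETS factors such as GABP), GCGCATGCG (a core of NRF1, nuclear respiratory factor), AAGATGGCG (a core of YY1) and TATAAA (the TATA box).
Mrpl50, chr4:49521034-49521333, minus strand: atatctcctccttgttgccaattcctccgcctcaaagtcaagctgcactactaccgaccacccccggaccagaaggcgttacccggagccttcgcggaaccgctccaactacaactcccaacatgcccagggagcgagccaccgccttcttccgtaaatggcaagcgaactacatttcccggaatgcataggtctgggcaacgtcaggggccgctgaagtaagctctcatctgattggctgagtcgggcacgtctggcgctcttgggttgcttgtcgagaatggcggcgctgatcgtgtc
Mrps17, chr5:129715247-129715546, plus strand: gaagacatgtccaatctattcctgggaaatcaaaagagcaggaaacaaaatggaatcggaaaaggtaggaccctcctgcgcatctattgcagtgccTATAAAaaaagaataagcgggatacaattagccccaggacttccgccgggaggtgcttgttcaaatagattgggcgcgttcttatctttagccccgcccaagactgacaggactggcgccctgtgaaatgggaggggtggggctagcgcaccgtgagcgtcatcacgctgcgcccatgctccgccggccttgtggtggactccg
Mrpl42, chr10:95501900-95502199, minus strand: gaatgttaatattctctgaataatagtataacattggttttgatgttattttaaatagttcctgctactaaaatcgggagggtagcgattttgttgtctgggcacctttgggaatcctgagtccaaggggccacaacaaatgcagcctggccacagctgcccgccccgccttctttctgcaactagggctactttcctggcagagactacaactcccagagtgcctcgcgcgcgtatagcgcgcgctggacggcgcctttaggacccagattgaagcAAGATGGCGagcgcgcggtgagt
Mrpl46, chr7:78783040-78783339, minus strand: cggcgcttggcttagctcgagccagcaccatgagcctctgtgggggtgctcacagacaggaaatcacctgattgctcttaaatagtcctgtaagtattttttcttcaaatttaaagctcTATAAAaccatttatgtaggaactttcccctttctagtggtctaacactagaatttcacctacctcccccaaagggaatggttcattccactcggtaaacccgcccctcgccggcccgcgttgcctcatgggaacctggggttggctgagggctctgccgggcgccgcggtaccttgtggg

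The Mrpl50 window held none of the 4 motifs, those of Mrps17 and Mrpl46 held TATAAA far upstream of the start, at bases 97 and 120, and that of Mrpl42 held AAGATGGCG just behind the start, at base 278. A window was given for 65 of the 74 members. CCGGAAG was found in 24 of them (36.9%), in 21.5% of the windows of expressed genes and in 9.93% of the 27025 windows of all genes. GCGCATGCG was found in 7 (10.8%, against 4.42% of expressed genes and 1.95% of all genes), and AAGATGGCG in 8 (12.3%, against 4.03% and 1.64%). TATAAA was found in 5 members (7.69%, against 9.50% and 15.7%): Mrpl16, Mrpl46, Mrpl48, Mrps17 and Mrps24. The 23 expressed members with CCGGAAG had a median age difference of 0.89 in OVA and 0.65 in PBS, and the 37 without it 0.87 in OVA and 0.62 in PBS. For GCGCATGCG the medians were 0.97 in OVA and 0.59 in PBS over the 7 with it, and 0.87 in OVA and 0.65 in PBS over the 53 without. The 6 with AAGATGGCG had 0.57 in OVA and 0.45 in PBS, and the 54 without it 0.90 in OVA and 0.67 in PBS. The 5 with TATAAA had 1.55 in OVA and 0.60 in PBS, and the 55 without it 0.87 in OVA and 0.65 in PBS. These medians rest on few genes and were not tested against each other. A match is a description of letters and not evidence of binding.

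Another gene on the opposite strand, with its start within 500 bases upstream, stood beside 22 of the 65 members (33.8%), 17.4% of the expressed genes with a window and 10.9% of all genes with one. Mrpl46 and Mrps11, a protein of the small subunit's platform, are such a pair, with starts 42 bases apart; the start of Mrps11 falls on base 209 of the Mrpl46 window above. Mrps11 stood at 7.72 in OVA and 7.98 in PBS at P70, against 7.64 in OVA and 7.60 in PBS at P30. Its age difference was 0.08 in OVA and 0.38 in PBS, against 2.43 and 1.43 for Mrpl46 in the same groups. Mrpl50 starts 93 bases from Zfp189, a zinc-finger gene at 8.28 in OVA and 8.18 in PBS at P70, against 8.23 in OVA and 8.17 in PBS at P30. Neither neighbour shared the large age difference of the gene beside it. Neighbours with larger age differences than the member existed too: Psma2, a proteasome subunit gene 205 bases from Mrpl32, differed by 1.75 in OVA and 2.04 in PBS, against 0.50 and 0.59 for Mrpl32. Fau, which encodes a cytosolic ribosomal protein and starts 192 bases from Mrpl49, differed by 2.77 in OVA and 2.55 in PBS, against 1.51 and 0.61 for Mrpl49. Of 11 expressed members with an expressed neighbour that is no member itself, the member had the larger age difference in 7 in OVA and in 6 in PBS.

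**Figure D2:**
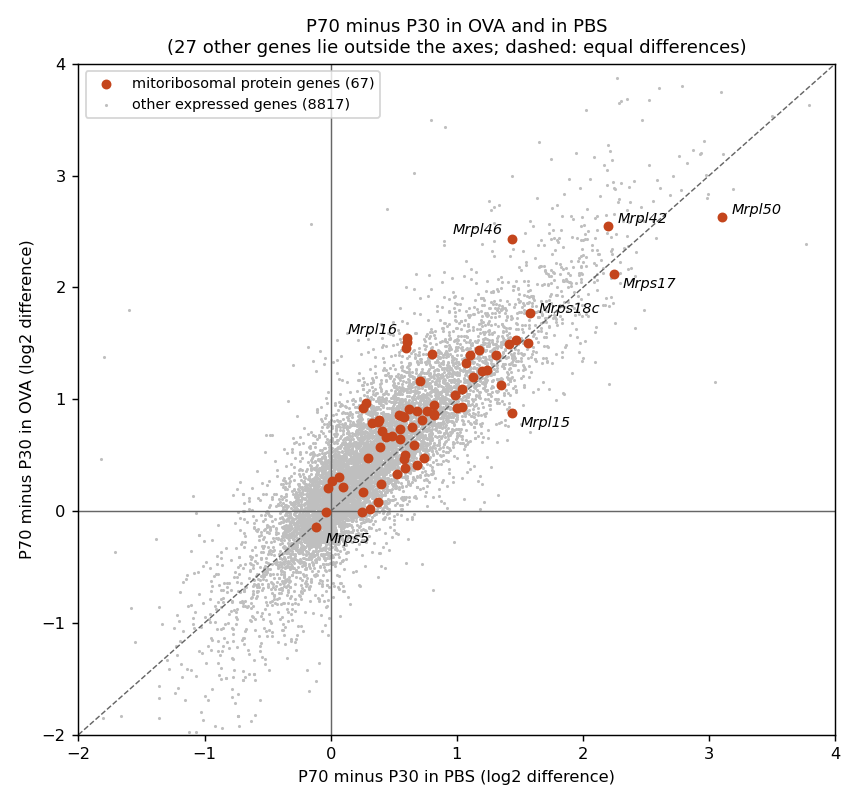
P70 minus P30 as a log2 difference in OVA (y axis) against PBS (x axis) for the 67 expressed members (red) and the 8817 other expressed genes (grey), with 27 of the latter outside the axes. Nearly all members lie above 0 on both axes, Mrpl50 farthest to the right at 3.10 and Mrpl46 well above the dashed line of equal differences.

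Across the 67 expressed members the age differences in OVA and in PBS correlated at r = 0.85 (Spearman's rho = 0.81), and across all expressed genes at r = 0.88 (rho = 0.86). The genes of 1 array share its labelling, hybridisation and scaling and are no independent points. At least 1.5-fold higher in both treatments were 35 members (52.2%), against 25.8% of all expressed genes. At least 2-fold higher in both were 17 (25.4%), against 11.6%.

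By role, the 26 expressed large-subunit proteins with bacterial counterparts had a median age difference of 0.90 in OVA and 0.65 in PBS. Higher by at least 1.5-fold were 21 in OVA (background 38.3%) and 18 in PBS (background 28.7%). Among them were Mrpl24 (2.83-fold in OVA, 2.95-fold in PBS) and Mrpl22 (1.49 and 1.42 as log2 differences), which lie around the tunnel through which the new chain leaves, and Mrpl13 (1.53 and 1.47). Mrpl11, of the stalk that receives translation factors, differed by 1.39 in OVA and 1.31 in PBS, and its stalk partner Mrpl10 by 0.97 in OVA and 0.28 in PBS. Proteins near the site where peptide bonds form ranged widely: Mrpl16 differed by 1.55 in OVA and 0.60 in PBS, Mrpl27 by 0.75 and 0.65, Mrpl2 by 0.92 and 0.26, and Mrpl3 by 0.64 and 0.55. Mrpl4 (0.31 and 0.06) and Mrpl33 (-0.01 and -0.04) were the lowest of the group in PBS. Of the remaining members, Mrpl47, at the tunnel exit, differed by 1.13 in PBS, Mrpl17 by 0.80, Mrpl21 by 0.93 in OVA and 1.04 in PBS, and Mrpl9 by 0.02 and 0.31. Mrpl18, related to a bacterial protein that binds 5S ribosomal RNA, differed by 0.89 in OVA and 0.69 in PBS, Mrpl1 by 0.86 and 0.54, Mrpl14 by 0.78 and 0.33, and Mrpl23 by 0.48 and 0.74.

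The 16 expressed large-subunit proteins counted as found only in mitochondria gave a median of 0.83 in OVA and 0.59 in PBS. All 16 were higher at P70 in both treatments as deposited. After the centring along the level given below, however, Mrpl45 in OVA and Mrpl38 in PBS were at -0.08. Below Mrpl50, Mrpl42 and Mrpl46, the next in PBS were Mrpl39 (1.32 in OVA, 1.07 in PBS) and Mrpl43 (1.04 and 0.99), and the next in OVA was Mrpl49 (1.51 in OVA, 0.61 in PBS). Mrpl44, a protein with a ribonuclease III fold, differed by 0.47 in OVA and 0.58 in PBS. Mrpl45, which holds the ribosome to the inner membrane at the tunnel exit, differed by 0.17 in OVA and 0.26 in PBS, and Mrpl38 by 0.27 in OVA and 0.01 in PBS. Mrpl37 (0.82 and 0.72), Mrpl51 (0.89 and 0.76) and Mrpl52 (0.85 and 0.56) lay in between. The spread within this group was wider than the gap between its median and that of any other group.

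In the small subunit, the 14 expressed proteins with bacterial counterparts had a median age difference of 0.63 in OVA and 0.70 in PBS. Of these, 7 in OVA (background 38.3%) and 9 in PBS (background 28.7%) were at least 1.5-fold higher. After Mrps17 and Mrps18c, the largest in PBS were Mrps16 (1.13 in OVA, 1.35 in PBS), Mrps21 (2.64-fold in OVA, 1.10 as a log2 difference in PBS) and Mrps15 (1.10 and 1.04), while in OVA Mrps21 came first of these and Mrps9 (1.16 in OVA, 0.71 in PBS) next. Mrps12, of the centre that decodes the messenger RNA, differed by 0.38 in OVA and 0.59 in PBS. Mrps5 was the clearest exception. It stood at 8.37 in OVA and 8.35 in PBS at P70, against 8.50 in OVA and 8.46 in PBS at P30, with both P70 values below both P30 values. Mrps2 was at 8.91 in OVA and 9.07 in PBS at P70, against 8.92 in OVA and 8.82 in PBS at P30, and its ages overlapped. Mrps14 differed by 0.86 in OVA and 0.82 in PBS, and Mrps10 by 0.41 and 0.69. The 10 small-subunit proteins counted as found only in mitochondria gave 0.78 in OVA and 0.53 in PBS. They were led by Mrps22 (1.26 and 1.24) and Mrps33 (1.25 in OVA), with Mrps26 (0.21 and 0.10) and Mrps27 (0.21 and -0.02) at the low end. Mrps31 differed by 0.95 in OVA and 0.82 in PBS, Mrps34 by 0.67 and 0.49, and Mrps35 by 0.66 and 0.44. Mrps36 differed by 0.48 in OVA and 0.30 in PBS.

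Members under the floor followed the same direction from low levels. Mrpl36, whose bacterial counterpart is among the smallest ribosomal proteins, was at 6.11 in OVA and 5.43 in PBS at P70, against 4.89 in OVA and 4.82 in PBS at P30. Mrpl54 was at 7.56 in OVA and 7.27 in PBS at P70, against 6.74 in OVA and 6.78 in PBS at P30. Mrpl12, the stalk protein that binds Mrpl10, was at 7.29 in OVA and 7.26 in PBS at P70, against 7.10 in OVA and 7.01 in PBS at P30. Values this low lie toward the background of an array, which compresses differences.

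**Figure D3:**
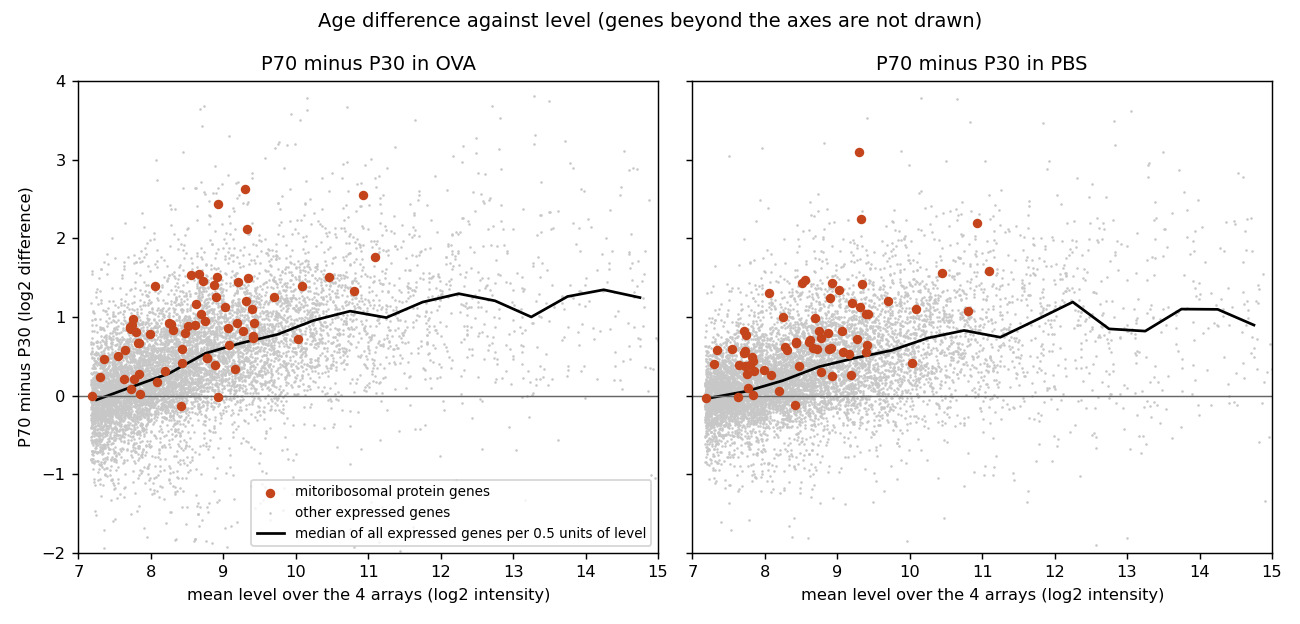
P70 minus P30 as a log2 difference (y axis) against the mean level over the 4 arrays in log2 intensity (x axis), in OVA (left) and PBS (right), for the expressed members (red) and the other expressed genes (grey), with genes beyond the axes not drawn. The black line is the median of all expressed genes in steps of 0.5 units of level; it climbs with level, and most members lie above it in both panels.

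Brighter genes had larger age differences throughout these arrays, so members were also read against genes of their own level. Between levels 8 and 9 the median over 2722 expressed genes was 0.40 in OVA and 0.26 in PBS, and over the 26 members there it was 0.90 in OVA and 0.67 in PBS. Between levels 9 and 10 it was 0.72 in OVA and 0.52 in PBS over 1491 genes, and 1.01 in OVA and 1.04 in PBS over 16 members. From the floor to level 8, where 3152 genes had a median of 0.05 in OVA and 0.02 in PBS, 19 members had 0.57 in OVA and 0.39 in PBS. In each of these 3 ranges the members' median lay above that of all expressed genes in both treatments.

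After the differences were centred along the level with a lowess curve, the members' median was 0.48 in OVA and 0.38 in PBS, with all expressed genes at -0.01 in each. Above 0 were 57 members in OVA (background 49.6%) and 58 in PBS (background 49%). At least 1.5-fold higher were 21 in OVA (background 13.4%) and 19 in PBS (background 11.5%), and 12 in both (17.9%, background 8.16%). The 12 were Mrpl11, Mrpl13, Mrpl20, Mrpl22, Mrpl42, Mrpl46, Mrpl50, Mrpl51, Mrpl55, Mrps17, Mrps18c and Mrps22. Centring turned the sign of 9 members in OVA and 6 in PBS. Those that had differed by at least 1.2-fold were Mrpl23 (to -0.05), Mrps12 (to -0.20), Mrps23 (to -0.20), Mrps24 (to -0.32) and Mrps36 (to -0.09) in OVA, and Mrps23 (to -0.21) and Mrps36 (to -0.05) in PBS. Mrps2 in OVA (-0.60) was the 1 member at least 1.5-fold lower (background 10.9% in OVA and 8.88% in PBS). The neutrophil and monocyte marker genes were also higher at P70, and on a larger scale: the 12 expressed neutrophil markers had a median age difference of 3.65 in OVA and 2.33 in PBS. Bulk values do not separate a greater share of one kind of cell from more RNA per cell, and the part of these cells in the members' age difference was not tested.

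The other genes of mitochondrial translation, from lists of 84 symbols, were set beside the members. The mitoribosomal proteins with symbols of another kind were led by Chchd1, a small-subunit protein at 10.14 in OVA and 9.98 in PBS at P70, against 7.49 in OVA and 8.08 in PBS at P30. Dap3, the GTP-binding protein of the small subunit, differed by 0.56 in OVA and 0.31 in PBS, and Ptcd3, at the entrance for messenger RNA, by 0.26 in OVA and 0.97 in PBS. The ribosomal RNA gene mt-Rnr1 stood at the arrays' upper limit on all 4 arrays and gave no measured difference.

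Translation factors had a median age difference of 0.74 in OVA and 0.60 in PBS over 10 expressed genes. Of these, 8 in OVA (background 38.3%) and 5 in PBS (background 28.7%) were at least 1.5-fold higher. The elongation factor Tufm differed by 0.63 in OVA and 0.53 in PBS, and the release factor Mtrf1 by 1.36 and 1.32. Mtrf1 was under the floor on both P30 arrays, at 6.55 in OVA and 6.63 in PBS. It counted as expressed through its P70 values of 7.90 in OVA and 7.95 in PBS. Mrrf, which recycles the ribosome after termination, was the exception. It stood at 9.54 in OVA and 9.95 in PBS at P70, against 10.71 in OVA and 10.77 in PBS at P30, 1 of the list's 10 genes and the sole one below 0 in both treatments.

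Assembly factors and modifiers of the ribosomal RNA had a median of 0.58 in OVA and 0.40 in PBS over 20 expressed genes. Of these, 10 in OVA (background 38.3%) and 7 in PBS (background 28.7%) were at least 1.5-fold higher. Mterf3 (1.72 in OVA, 1.43 in PBS) and Fastkd2 (1.39 and 1.45) led them, and the GTPase Eral1, a chaperone of the small ribosomal RNA, was below 0 in both (-0.13 and -0.24). The enzymes that charge mitochondrial transfer RNAs had 0.44 in OVA and 0.25 in PBS over 14 genes, a PBS median equal to that of all expressed genes, with Yars2 highest (1.30 and 1.28) and Sars2 lowest (-0.28 and -0.31). Sars2 lies head to head with Mrps12, 147 bases away.

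Genes of mitochondrial transcription and RNA stability had 0.80 in OVA and 0.72 in PBS over 9 genes, led by Slirp (1.98 and 1.44), which stabilises mitochondrial messenger RNA together with Lrpprc (0.44 and 0.29). Membrane insertion and coupled assembly gave 0.91 in OVA and 0.72 in PBS over 6 genes, all 6 above 0, with Coa3 at 2.14 in OVA and 1.15 in PBS. After centring along the level these 5 lists kept medians between 0.17 and 0.27 in OVA and between 0.10 and 0.30 in PBS, against 0.48 and 0.38 for the members. Cytosolic ribosomal proteins had medians of 1.21 in OVA and 1.12 in PBS over 36 genes, and 0.44 and 0.40 after centring. Differences between lists were not tested.

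**Figure D4:**
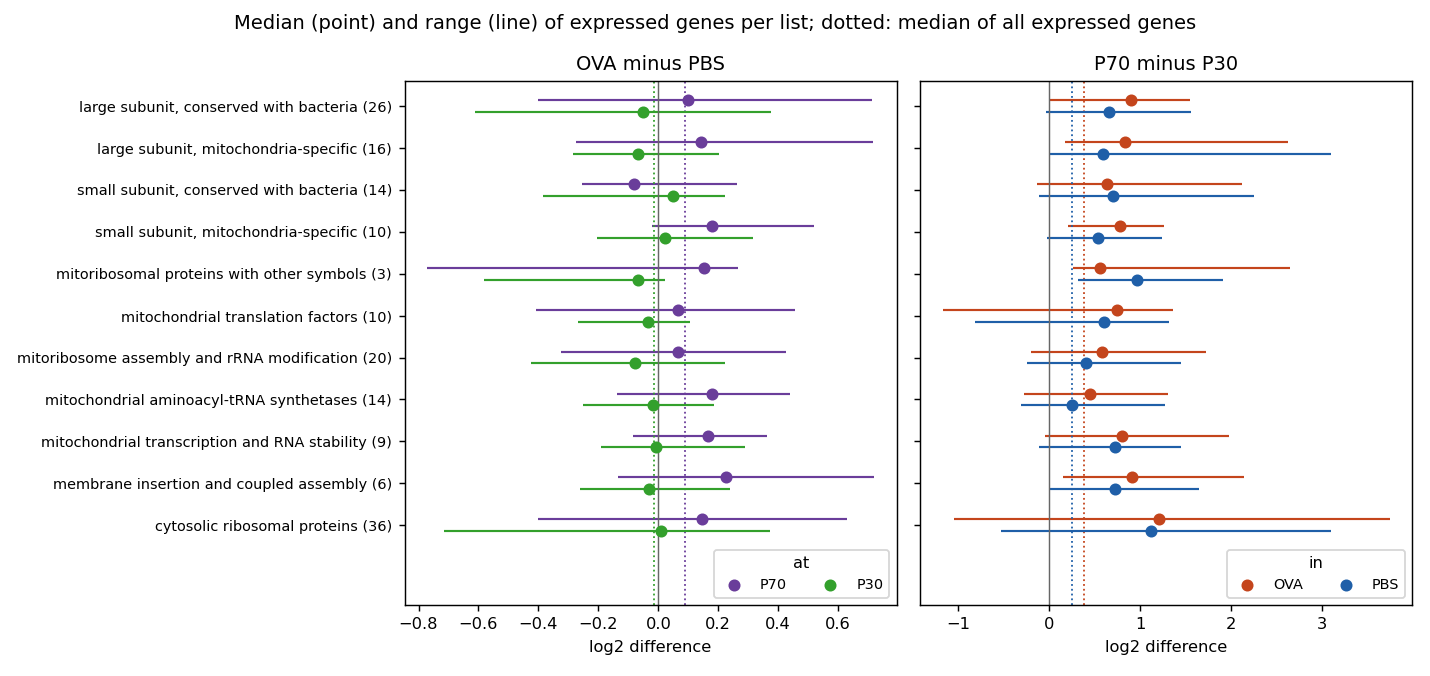
Median (point) and range (line) of the log2 difference over the expressed genes of each list, their number in brackets, for OVA minus PBS (left, at P70 and P30) and P70 minus P30 (right, in OVA and PBS), with dotted lines at the medians of all expressed genes. On the left the points lie around 0 and the dotted lines. On the right the 4 groups of members and the other lists alike lie to the right of the dotted lines. The exception is the aminoacyl-tRNA synthetases in PBS, which lie on their line.

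The comparison of OVA with PBS at P30 asked how the allergy group's microglia differed at the younger age. The members showed no common direction. Of the 67 expressed members, 33 were higher in OVA, where 46.2% of all expressed genes were, and the median difference was -0.0032, against -0.015 over all expressed genes. Mrpl34, a small protein of the large subunit, was the 1 member at least 1.5-fold away from PBS, at 7.90 in OVA and 8.51 in PBS (background 0.957% at least 1.5-fold lower), and none was at least 1.5-fold higher (background 0.675%). At least 1.2-fold lower were 5 members (background 8.94%): Mrpl34, Mrps21 (-0.38), Mrpl46 (-0.28), Mrps15 (-0.28) and Mrpl4 (-0.26). At least 1.2-fold higher were 3 (background 5.94%): Mrpl19 (0.38), Mrps25 (0.32) and Mrpl24 (0.30).

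The medians of the 2 subunits had opposite signs at P30. The 42 expressed large-subunit members had a median of -0.069, with 15 higher and 27 lower in OVA, and the 24 of the small subunit had 0.042, with 17 higher and 7 lower. The difference between the subunits was not tested. Neutrophil markers were split at this age. Of the 12 expressed, 7 were at least 1.5-fold lower in OVA, and the others lay between -0.12 and 0.04. Their median difference was -1.10. The part of these cells in the members' differences was not tested.

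At P70 the same comparison again left the members where other genes were. Higher in OVA were 44 of the 67 expressed members (background 64.9%), and their median difference was 0.076, against 0.090 over all expressed genes. At least 1.5-fold higher were 3 (4.48%, background 4.06%), none was at least 1.5-fold lower (background 1.25%), and at least 1.2-fold higher were 12 (background 23.5%) against 2 at least 1.2-fold lower (background 7.83%).

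The 3 at least 1.5-fold higher at P70 all belong to the large subunit, as do 42 of the 67 expressed members. Mrpl46 stood at 10.25 in OVA and 9.53 in PBS, a difference of 0.71. Mrpl16, near the site where peptide bonds form, stood at 9.56 in OVA and 8.84 in PBS, also a difference of 0.71. Mrpl49 stood at 9.79 in OVA and 9.10 in PBS, a difference of 0.69. All 3 had been lower in OVA at P30, by differences of -0.28 for Mrpl46, -0.23 for Mrpl16 and -0.21 for Mrpl49. Lower in OVA at P30 were 34 of the 67 expressed members and 53.8% of all expressed genes. After centring along the level, none of the 3 reached 1.5-fold at P70 (0.56, 0.57 and 0.54), and no other member did (background 1.98%).

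Other members higher in OVA at P70 were Mrps23 (0.52), Mrpl10 (0.46) and Mrpl28 (0.45), and the lowest were Mrpl15 (-0.40), Mrpl50 (-0.27) and Mrps11 (-0.26). The large subunit had a median of 0.12, with 30 of 42 higher in OVA, and the small subunit 0.012, with 13 of 24 higher. After centring along the level these were 0.011 and -0.083. Of the genes listed with the members, Ptcd3 was at 7.86 in OVA and 8.63 in PBS at P70, and Coa3, an assembly factor of cytochrome oxidase, at 9.09 in OVA and 8.37 in PBS. Markers of border-associated macrophages were higher in OVA at P70, summing to 13.33 in OVA and 12.06 in PBS over 11 genes (10 expressed), and those of the ependyma and choroid plexus to 12.11 in OVA and 8.84 in PBS over 5 genes, of which Ttr alone was expressed. Their part in single members' differences was not tested.

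**Figure D5:**
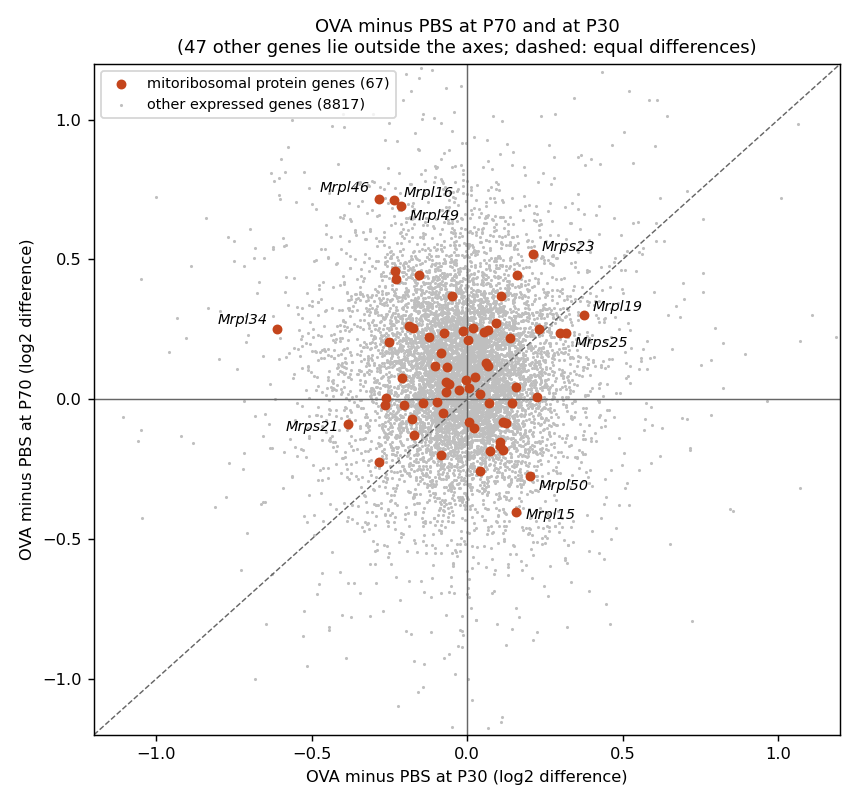
OVA minus PBS as a log2 difference at P70 (y axis) against P30 (x axis) for the 67 expressed members (red) and the 8817 other expressed genes (grey), with 47 of the latter outside the axes. The members spread around the centre of the other genes, with Mrpl46, Mrpl16 and Mrpl49 at the top left, lower in OVA at P30 and higher at P70.

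Setting the OVA differences of the 2 ages side by side asked whether the same members departed from PBS at both. Across the 67 expressed members they correlated at r = -0.15 (Spearman's rho = -0.10), and across all expressed genes at r = 0.01 (rho = -0.02). Higher in OVA at both ages were 20 members and lower at both 10, while 24 were lower at P30 but higher at P70 and 13 the reverse. Over all 8884 expressed genes these counts were 2644, 1656, 3119 and 1458, which are similar proportions. Mrpl19, Mrps25 and Mrpl24, the 3 highest at P30, were also higher at P70 (0.30, 0.24 and 0.24). Mrps15 was lower at both ages (-0.28 at P30 and -0.23 at P70). The OVA difference at P70 exceeded that at P30 most for Mrpl46 (1.00), Mrpl16 (0.95), Mrpl49 (0.91) and Mrpl34 (0.86), and fell short of it most for Mrpl15 (-0.56) and Mrpl50 (-0.47).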

How the data were processed

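RNA of isolated microglia was amplified with the GeneChip WT Pico kit and labelled with biotin, per the labels' protocols. The deposited values are linear intensities, 1 per probe set and array, normalized and summarised by the authors; RMA and Affymetrix Expression Console 1.4.1 are named, with no role for either, per the submitters' processing notes. The scaling between arrays is not stated in the sources used here.

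The intensities were taken to log2, with no further normalization in the main setting. Of 65956 probe sets, 30604 carry 1 symbol in the platform annotation, 2146 several and 33206 none here. Of those with 1 symbol, 12584 probe sets of predicted genes, small RNAs, receptor families and antigen receptor segments were dropped. This left 17768 genes, each with its brightest probe set, and every member has 1 probe set. The symbols are those of the platform. Expressed genes (8884) have a mean level at or above the median, 7.18. Differences are between 2 arrays and were counted at 1.2-fold and 1.5-fold, and at 2-fold, which was added after the values were seen. The number of arrays limits the precision. Centring along the level used lowess with a fraction of 0.3. The procedure was tested on simulated data. Python 3.11.15, pandas 2.3.3, scipy 1.17.1 and statsmodels 0.14.6 were used.

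The members and the gene lists were chosen with earlier results of these data known. Members named in the text are, by rule, the 6 largest and 6 smallest differences of each comparison, the 5 largest and 5 smallest gaps between the OVA differences of the ages, all at least 1.5-fold in any comparison, the 6 brightest, the S18 relatives, and among members under the floor the 3 brightest and those at least 1.5-fold; in each other list, up to 3 with the largest difference in each comparison and the 2 brightest. Mrps24, Mrps36, Mrpl41, Lrpprc, Sars2, Zfp189, Psma2 and Fau stand outside this rule and were named after their values were seen.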

Additional observations from a re-analysis of the deposited data

Results flagged for a closer look

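Mrpl46 stood on opposite sides of PBS at the 2 ages by at least 1.2-fold each: its OVA minus PBS difference was -0.28 at P30 (7.82 in OVA, 8.10 in PBS) and 0.71 at P70 (10.25 in OVA, 9.53 in PBS). The difference between the ages was not tested, since each group is 1 array. It was the 1 member with such opposite differences, and the share of all expressed genes with them is not given here. Taken singly, 8.94% of all expressed genes were at least 1.2-fold lower in OVA at P30, and 23.5% at least 1.2-fold higher at P70.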

How the results depend on the processing

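The direction of the members' median was kept in both age comparisons under every alternative run, and its size depended on the scaling. After quantile normalization the median P70 minus P30 difference was 0.47 in OVA and 0.38 in PBS, and 21 members in OVA (31.3%, background 12.8%) and 20 in PBS (29.9%, background 11.3%) were at least 1.5-fold higher. After lowess centring along the level it was 0.48 in OVA and 0.38 in PBS, with 21 and 19 members. Under each of these, 1 member was at least 1.5-fold lower at P70 in OVA (background 12.1% after quantile normalization and 10.9% after lowess centring). For OVA minus PBS at P70, 0 members were at least 1.5-fold higher (background 1.22% and 1.98%). The members' median for OVA minus PBS at P70 was -0.020 after quantile normalization and -0.012 after lowess centring. A filter at the upper quartile of levels gave medians of 1.11 in OVA and 0.82 in PBS, against 0.74 and 0.54 over all genes passing it. The gap between the members' median and that of all genes was then 0.37 in OVA and 0.28 in PBS. In the main setting it was 0.48 in OVA and 0.37 in PBS. With Mrps36 left out and mitoribosomal proteins under other symbols added, a set chosen after the values were seen, 1 gene (Ptcd3) was at least 1.5-fold lower for OVA minus PBS at P70 (background 1.25%). Among age differences of at least 1.5-fold, that of Mrps23 in OVA changed sign, to -0.23 after quantile normalization and -0.20 after lowess centring. With smaller ones included, quantile normalization turned 9 of the 67 expressed members in OVA and 8 in PBS, and lowess centring 9 and 6; for OVA minus PBS at P70 they turned 12 and 14, none of them from 1.2-fold or more. The share of all expressed genes that turned is not given here, and the cause of these shifts was not tested. Of the other values for single members chosen by the naming rule, 501 stayed within 0.1 log2 units and 325 moved by more. No paired analysis was possible because each group is 1 array. There are no replicates, and members near the floor have compressed differences.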
